A study of Homo sapiens with 12 samples.

Results

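The lysosome and autophagy genes described here are 41 human genes chosen by name for their place in the lysosome, in the vacuolar proton pump, in the making of autophagosomes or in the transcriptional control of these organelles. The choice was made with earlier results of these data known. Their RNA was measured in HEK cells, a human embryonic kidney line, that carry a tetracycline-inducible gene for the ion channel TRPM7. Of the 41 genes, 40 had an array probe set that the platform annotation ties to 1 gene symbol, out of 19775 such genes on the array. The 40 divide into 12 hydrolases and other luminal proteins, 6 membrane proteins, 8 proton pump genes, 2 transcription factors and 12 autophagy genes. GLB1, the remaining listed gene, has only a probe set annotated to a pair of symbols and is not reported. Each gene was read from its brightest probe set, the one with the highest mean log2 signal over the 12 arrays, and all 40 were bright enough to be tested.

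The arrays form 4 groups of 3. WT cells with tetracycline carried the wild-type channel and received the inducer for 72 hours, at an amount labelled as 1 ug with no volume given. WT cells left untreated are their reference. Mutant cells with tetracycline carried TRPM7DKD, a form without the kinase domain at the C-terminal end that the submitters call nonfunctional and use to control for effects of the inducer itself, and mutant cells left untreated are the reference for these. Both lines were stable, grew in medium with 10% serum and 5 ug/mL blasticidin, and gave total RNA for 1 array per sample. The labels do not say how many clones each line holds, whether the replicates of a group came from separate cultures, or whether the HEK cells kept their own TRPM7. P-values therefore measure only the spread between these samples, which may be technical, and a comparison between lines cannot tell the form of the channel apart from other differences between the lines.

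Lysosomes are acidic organelles in which hydrolases break down proteins, lipids and sugars. The V-ATPase, a pump with a membrane sector and a cytosolic sector, moves protons into the lumen, and membrane proteins shield, supply and empty the organelle. In autophagy, a cup of membrane closes around cytoplasm and fuses with the lysosome. TFEB and TFE3 are transcription factors that bind E-box motifs near many lysosomal genes, and cells can raise or lower parts of the system together.

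Signals are Affymetrix MAS5 values on a log2 scale, and a change is the log2 difference of 2 group means. The trimmed mean signal was the same on all arrays, about 500. The WT line was the noisier: the median standard deviation (SD) of the 40 genes within a group was 0.25 in WT cells with tetracycline and 0.26 in untreated WT cells, against 0.14 in both groups of mutant cells. The model used for the tests gave each probe set 1 spread shared by all 4 groups. Standard errors and p-values of changes in the WT line therefore also rest on the less noisy mutant arrays. WT arrays had a log2 ratio of 3′ to 5′ actin signal of 1.05 ± 0.27 (SD, n = 6), against 0.26 ± 0.03 on mutant arrays (n = 6), and an 18S signal of 8.73 ± 0.71 against 6.95 ± 0.55. In both measures no WT array overlapped a mutant array (exact permutation test, 2-sided, p = 0.0022, the smallest this design allows), while the treatments within a line did not separate (p = 0.5 to 1, where 0.1 is the smallest). The log2 ratio of 3′ to 5′ GAPDH signal did not separate the lines, at 0.083 ± 0.063 on WT and 0.075 ± 0.037 on mutant arrays (exact permutation p = 0.78). Nor did the mean log2 signal of the poly-A controls, at 9.25 ± 0.85 and 8.90 ± 0.31 (exact permutation p = 0.37). All 8 HEK markers listed for this work, such as the neurofilament gene INA and the kidney factor PAX2, were above the level for testing. Of 6 blood and immune markers 4 had a probe set and 1 was tested, and of 7 fibroblast and endothelial markers 2 were tested. The log2 of the summed signal of all 7 fibroblast and endothelial markers was 10.43 to 10.54 in WT cells with tetracycline and 9.57 to 10.14 in untreated WT cells, with most of it from the collagen gene COL1A1. The summed HEK markers were higher without overlap as well, at 16.06 to 16.37 in WT cells with tetracycline and 15.79 to 15.83 in untreated WT cells. Mutant cells did not overlap in this sum either, at 15.88 to 16.02 with tetracycline and 15.76 to 15.81 without. Of the 8 HEK markers, the filament genes VIM (0.65 ± 0.10, limma adjusted p = 0.0011) and INA (0.86 ± 0.17, adjusted p = 0.0043) rose in WT cells. No other HEK marker passed there, and KRT18 (-0.21) and LIN28B (-0.20) had changes below 0. The part of either shift in the results was not tested. None of the 3 tested TRPM7 probe sets was called higher with tetracycline. The brightest read 7.62 ± 0.67 in WT cells with tetracycline and 8.47 ± 0.31 in untreated WT cells (-0.85 ± 0.30, limma adjusted p = 0.064), and the dimmest fell without overlap, at 5.00 ± 1.53 in WT cells with tetracycline and 6.999 ± 0.087 in untreated WT cells (-2.00 ± 0.63, adjusted p = 0.041). In mutant cells the dimmest was also lower without overlap, at 5.60 ± 0.53 with tetracycline and 6.84 ± 0.44 without (-1.24 ± 0.63). The remaining probe set was lower there too (-0.80 ± 0.57, no overlap), and neither was called. TRPM7 therefore does not bear out the label of these arrays, and the groups are named by their labels only. Which of its probes can read the transgene was not analysed here.

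In the WT line, 11 of the 40 genes rose with tetracycline and none fell (limma, adjusted p under 0.05 over all probe sets tested). Over all 13066 genes tested, 9.41% rose and 8.57% fell. Because the members were chosen with earlier results of these data known, these shares cannot show that the pathways as a whole rose. Of 141 further tested genes of the same pathways, 7.80% rose and 13.5% fell. The genes that rose were 4 hydrolases and luminal proteins, the membrane protein NPC1, the proton pump accessory protein ATP6AP1 and 5 autophagy genes. The median change of the 40 genes was 0.24, against 0.03 over all 13066 genes tested, and the 29 genes that did not pass ran from -0.79 for CLCN7 to 0.84 for TFEB. Changes were above 0 in 9 of 12 luminal, 10 of 12 autophagy, 1 of 6 membrane and 1 of 8 pump genes, while 47.45% of all tested genes lay below 0. Whether the classes differ from each other was not tested. In RNA from whole cultures, fewer cells of a type and less RNA per cell cannot be told apart. All 11 kept a change above 0 in each of the 22 other ways of processing that were run, yet few calls survived 2 of these: PSAP and NPC1 stayed called with only the WT arrays in the model, and NPC1 alone without the replicate 3 arrays of all groups.

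**Figure D1:**
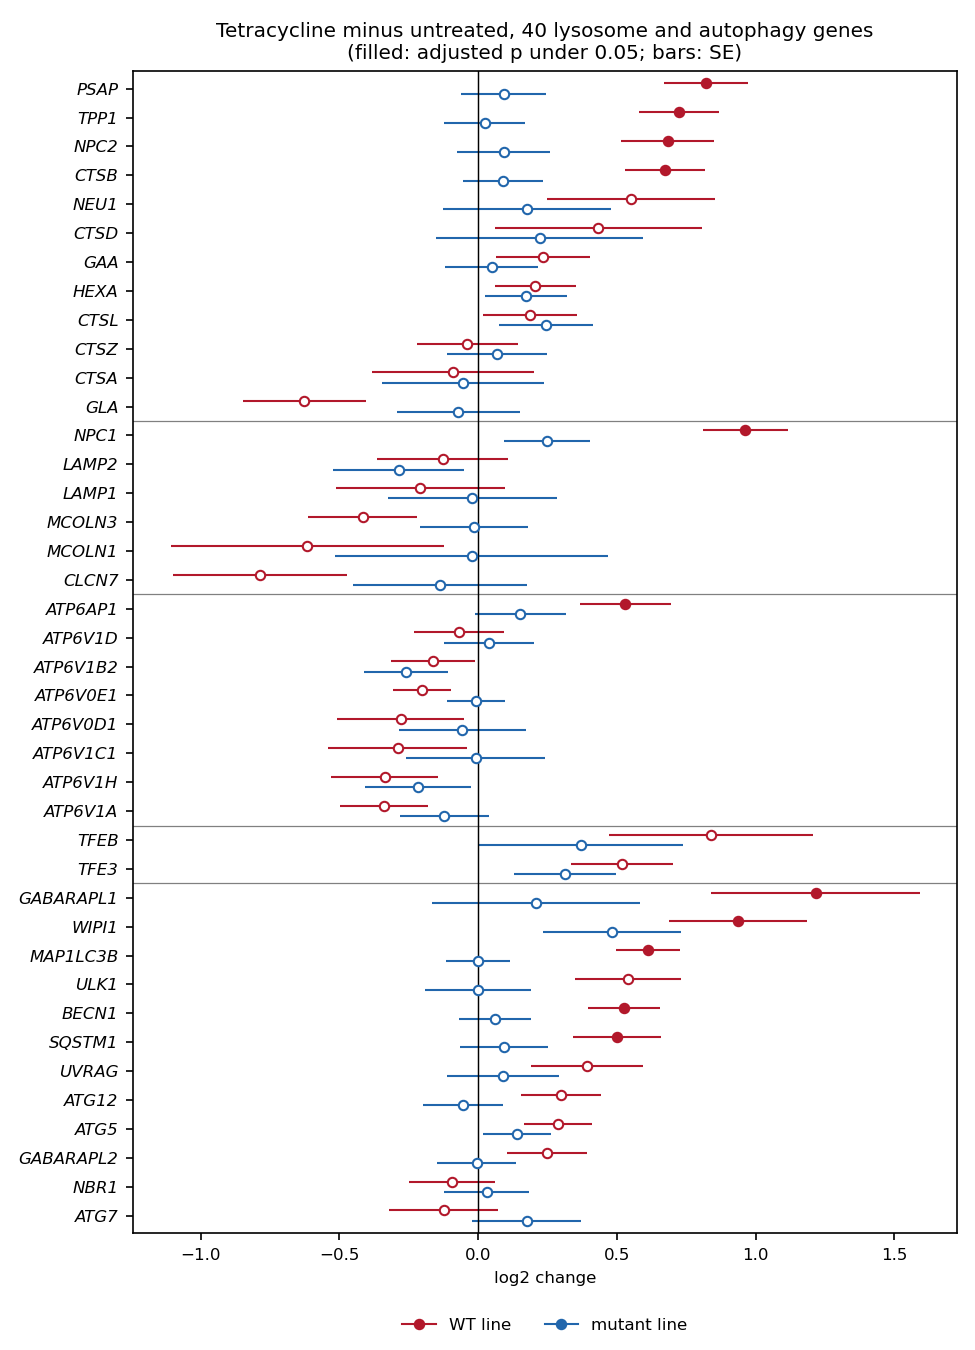
Log2 change with tetracycline (x axis) of the 40 lysosome and autophagy genes (rows), in the WT line (red, upper point of each row) and in the mutant line (blue, lower point), with the standard error as a bar. Grey lines part the luminal, membrane, proton pump, transcription factor and autophagy classes, and filled points have an adjusted p under 0.05. The 11 filled points are all in the WT line and run from 0.50 for SQSTM1 to 1.22 for GABARAPL1.

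Among luminal proteins, PSAP, TPP1, CTSB and NPC2 rose. PSAP, the precursor of the saposins that help hydrolases reach lipids, read 13.35, 13.72 and 13.83 in WT cells with tetracycline, against 12.60, 12.96 and 12.88 in untreated WT cells. The groups did not overlap, and the change was 0.82 ± 0.15 (standard error, SE; limma adjusted p = 0.0027). Mutant cells held PSAP at 12.39 to 12.80 with tetracycline and 12.31 to 12.62 without, so the WT cells with tetracycline stood above every other array. TPP1, a peptidase that removes tripeptides, read 10.96, 10.83 and 10.85 in WT cells with tetracycline, against 10.35, 9.98 and 10.14 in untreated WT cells. Its change was 0.72 ± 0.14 (limma adjusted p = 0.0042), and its 6 mutant arrays, from 9.94 to 10.23, lay within or just below the range of the untreated WT arrays. CTSB, the cysteine protease cathepsin B, read 11.86, 12.08 and 12.29 in WT cells with tetracycline and 11.27, 11.68 and 11.25 in untreated WT cells. Here too there was a gap between the groups, and the change was 0.67 ± 0.14 (limma adjusted p = 0.0061). The 6 mutant arrays spanned 11.13 to 11.26, at or below the low end of the untreated WT cells.

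NPC2, which lifts cholesterol off membranes in the lumen, read 12.40, 12.94 and 12.95 in WT cells with tetracycline, against 11.71, 12.29 and 12.24 in untreated WT cells. The change was 0.68 ± 0.17 (limma adjusted p = 0.013), and the call was lost without WT tetracycline replicate 2 (adjusted p = 0.062) or 3 (adjusted p = 0.059). NPC2 differed from the other 3 in where the mutant line stood: its mutant arrays, 12.60 to 12.78 with tetracycline and 12.54 to 12.66 without, were above all untreated WT arrays and lay within the range of the WT cells with tetracycline. The other 8 luminal genes did not pass. GLA, the galactosidase lost in Fabry disease, read 13.18, 14.21 and 13.89 in WT cells with tetracycline against 13.95, 14.78 and 14.43 in untreated WT cells, a change of -0.63 ± 0.22 (limma adjusted p = 0.066) with groups that overlap. NEU1, a sialidase, and CTSD, the aspartic protease cathepsin D, had changes of 0.55 ± 0.30 and 0.43 ± 0.37 with adjusted p of 0.23 and 0.46. GAA, HEXA and CTSL, which act on glycogen, gangliosides and proteins, lay between 0.19 and 0.23, and CTSZ and CTSA between -0.09 and -0.04.

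NPC1 was the only 1 of the 6 membrane proteins to rise and had the smallest adjusted p of the 40 genes. This transporter takes cholesterol from NPC2 and passes it out of the lysosome. It read 11.85, 11.76 and 11.92 in WT cells with tetracycline and 11.12, 10.88 and 10.65 in untreated WT cells, a change of 0.96 ± 0.15 (limma adjusted p = 0.0011). The 3 arrays of WT cells with tetracycline stood clear of the other 9, since the mutant arrays ran from 10.81 to 11.17 with tetracycline and from 10.63 to 10.97 without. The other 5 membrane genes had changes below 0 and none passed. CLCN7, a chloride and proton exchanger, read 9.17, 7.52 and 8.16 in WT cells with tetracycline and 9.19, 8.89 and 9.13 in untreated WT cells, a change of -0.79 ± 0.31 (limma adjusted p = 0.10). MCOLN1, the calcium release channel of the lysosome, read 8.80, 6.21 and 7.63 in WT cells with tetracycline and 8.47, 7.38 and 8.65 in untreated WT cells, a change of -0.62 ± 0.49 (limma adjusted p = 0.42). Both rest on a wide spread, with WT tetracycline replicate 1 at the untreated level and replicate 2 far below it. Its relative MCOLN3 was at -0.42 ± 0.19, and LAMP1 and LAMP2, the abundant glycoproteins that line the membrane, were at -0.21 ± 0.30 and -0.13 ± 0.24, with adjusted p of 0.16 to 0.75.

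The proton pump did not move as a block. ATP6AP1, an accessory protein that helps the pump assemble, read 12.04, 11.94 and 12.28 in WT cells with tetracycline, against 11.53, 11.22 and 11.93 in untreated WT cells. The change was 0.53 ± 0.16 (limma adjusted p = 0.039), and the groups all but touched. The mutant arrays ran from 11.94 to 12.25 with tetracycline or without, close to the WT cells with tetracycline. The call was lost when any of 9 single arrays was left out, among them WT tetracycline replicate 3 (adjusted p = 0.14) and untreated WT replicate 2 (adjusted p = 0.13). None of the 7 subunits of the membrane and cytosolic sectors passed, and all 7 changes were below 0, from -0.34 for ATP6V1A and ATP6V1H to -0.07 for ATP6V1D. These subunits depended on single arrays: without WT tetracycline replicate 1, the changes reached -0.58 and 3 of the 7 were called lower (ATP6V1A, ATP6V0D1 and ATP6V1H), without untreated WT replicate 1 or WT tetracycline replicate 3 only 6 of 7 stayed below 0, and without the replicate 3 arrays of all groups 4 did. The median subunit stood 0.18 above its own 12-array mean on WT tetracycline replicate 1, but 0.11 and 0.39 below it on replicates 2 and 3.

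Neither transcription factor passed the test. TFE3 read 11.36, 11.02 and 11.47 in WT cells with tetracycline and 10.91, 10.68 and 10.71 in untreated WT cells. Its groups did not overlap, and the change was 0.52 ± 0.18 (limma adjusted p = 0.066). TFEB read 7.71, 8.53 and 8.55 in WT cells with tetracycline and 6.67, 8.03 and 7.58 in untreated WT cells, a change of 0.84 ± 0.37 (limma adjusted p = 0.13). An array measures the RNA of these factors, whose activity is known to be set mainly by phosphorylation and entry into the nucleus.

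Autophagy genes made up the largest risen class, with MAP1LC3B, BECN1, WIPI1, GABARAPL1 and SQSTM1 higher in WT cells with tetracycline. MAP1LC3B, an ATG8-family protein that is joined to lipid on the growing membrane, read 11.98, 11.82 and 11.99 in WT cells with tetracycline, against 11.30, 11.21 and 11.45 in untreated WT cells. The change was 0.61 ± 0.12 (limma adjusted p = 0.0029), and the 6 mutant arrays spanned only 11.45 to 11.57, between the WT groups. This probe set can match more than 1 transcript, as can those of several other genes here, PSAP and GABARAPL1 among them. Signal from close copies therefore cannot be told apart. BECN1, a subunit of the lipid kinase complex that starts the membrane, read 11.41, 11.51 and 11.46 in WT cells with tetracycline and 10.92, 10.98 and 10.91 in untreated WT cells, a change of 0.52 ± 0.13 (limma adjusted p = 0.014). Both WT groups of BECN1 were tight, with SDs of 0.05 and 0.04, and the call was lost without WT tetracycline replicate 2 (adjusted p = 0.053).

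WIPI1, which reads the lipid made by that complex, read 9.01, 9.83 and 9.68 in WT cells with tetracycline, against 8.10, 8.99 and 8.62 in untreated WT cells. Its change was 0.94 ± 0.25 (limma adjusted p = 0.019), with WT tetracycline replicate 1 barely above the highest untreated array. Leaving out untreated WT replicate 1 or WT tetracycline replicate 2 or 3 ended the call (adjusted p = 0.074, 0.089 and 0.073). GABARAPL1, another ATG8-family member, had the largest change of the 40 in the WT line, 1.22 ± 0.38 (limma adjusted p = 0.038), and the only overlap among the 11: 9.52, 10.46 and 11.36 in WT cells with tetracycline, against 8.52, 9.76 and 9.41 in untreated WT cells. The call was lost without untreated WT replicate 1 (adjusted p = 0.15) or 3 (adjusted p = 0.069), without WT tetracycline replicate 2 (adjusted p = 0.099) or 3 (adjusted p = 0.18), and narrowly when any 1 of 5 mutant arrays was left out (adjusted p up to 0.054). SQSTM1, the receptor that ties ubiquitin-tagged cargo to ATG8 proteins, read 11.34, 11.24 and 11.27 in WT cells with tetracycline and 10.85, 10.44 and 11.06 in untreated WT cells. At 0.50 ± 0.16 (limma adjusted p = 0.043) it was the nearest to the threshold, its mutant arrays spanned 11.08 to 11.47, and its call was lost when any 1 of 10 arrays was left out, with the highest p (0.14) without untreated WT replicate 2.

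The other 7 autophagy genes did not pass. ULK1, the kinase that starts autophagy, read 8.80, 8.85 and 8.73 in WT cells with tetracycline and 8.16, 8.48 and 8.10 in untreated WT cells, a change of 0.54 ± 0.19 with no overlap (limma adjusted p = 0.066). UVRAG, a partner of BECN1, and ATG12 and ATG5, which are joined to each other to help lipidate ATG8 proteins, had changes of 0.39, 0.30 and 0.29. GABARAPL2, the third ATG8-family member of the list, was at 0.25 ± 0.14 (limma adjusted p = 0.25). The receptor NBR1 and the activating enzyme ATG7 lay at -0.09 and -0.12.

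**Figure D2:**
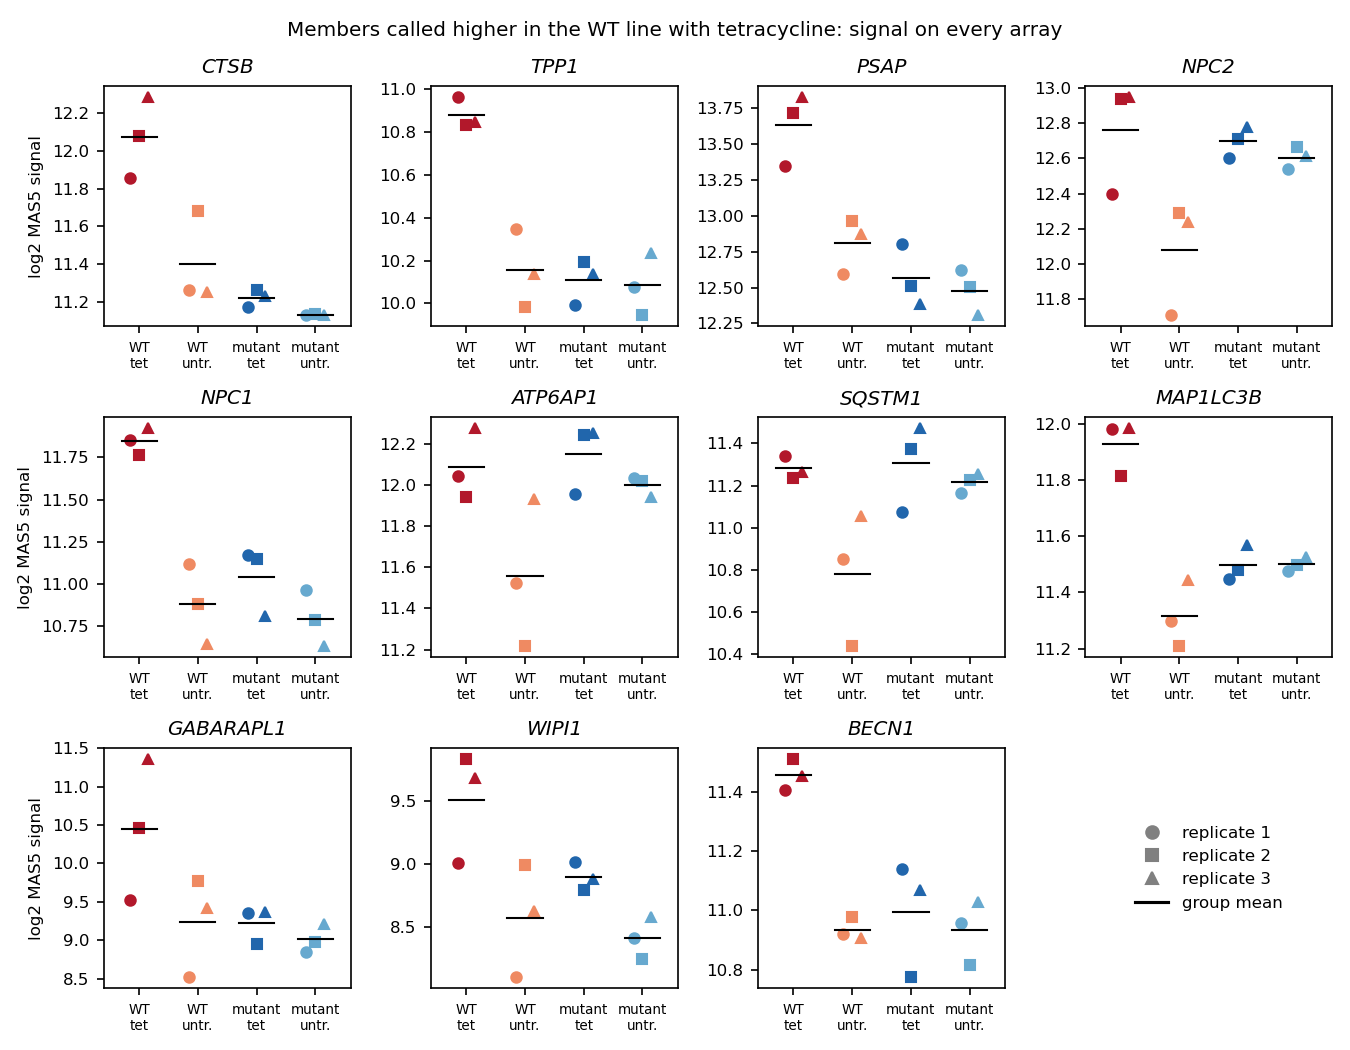
Log2 MAS5 signal (y axis, a separate range in each panel) of the 11 genes that rose in the WT line, by group from left to right: WT with tetracycline, WT untreated, mutant with tetracycline, mutant untreated. Symbols mark the replicate number and black lines the group means. NPC1, PSAP, TPP1 and MAP1LC3B show WT cells with tetracycline above all other arrays, while for NPC2, ATP6AP1 and SQSTM1 the untreated WT cells are low and the mutant cells stand near the WT cells with tetracycline.

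More than 1 tested probe set was available for 24 of the 40 genes, and these did not always move together. Beyond the brightest ones there were 51 further probe sets, of which 6 rose and 5 fell in WT cells with tetracycline. Over all 29553 tested probe sets, 2313 rose and 2692 fell. A second probe set rose too for PSAP (0.99), TPP1 (0.82), CTSB (0.91), MAP1LC3B (0.81) and BECN1 (0.51), while 3 of 16 further probe sets of the risen genes had changes below 0. CTSB had 3 more that did not pass, from -0.11 to 0.47, and with the mean of all its probe sets its change was 0.39 (limma adjusted p = 0.13). Averaging also ended the calls of NPC1 (0.58, limma adjusted p = 0.055), whose further probe sets read 0.66 and 0.12, and of SQSTM1 (0.28, adjusted p = 0.58), whose further probe sets ran from -1.46 to 2.34. For LAMP2 the calls were split: its brightest probe set was at -0.13 and did not pass, but the other 3 fell by 0.48, 0.65 and 1.59 (limma adjusted p = 0.031, 0.013 and 0.00086). Which LAMP2 transcripts each of the 4 reads was not analysed here. Among pump subunits, 1 of 6 further probe sets of ATP6V0E1 fell by 1.51 (limma adjusted p = 0.022) and 1 of 3 of ATP6V1C1 fell by 1.14 (adjusted p = 0.032). ATG12 had a further probe set that rose, by 0.84 (adjusted p = 0.011).

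**Figure D3:**
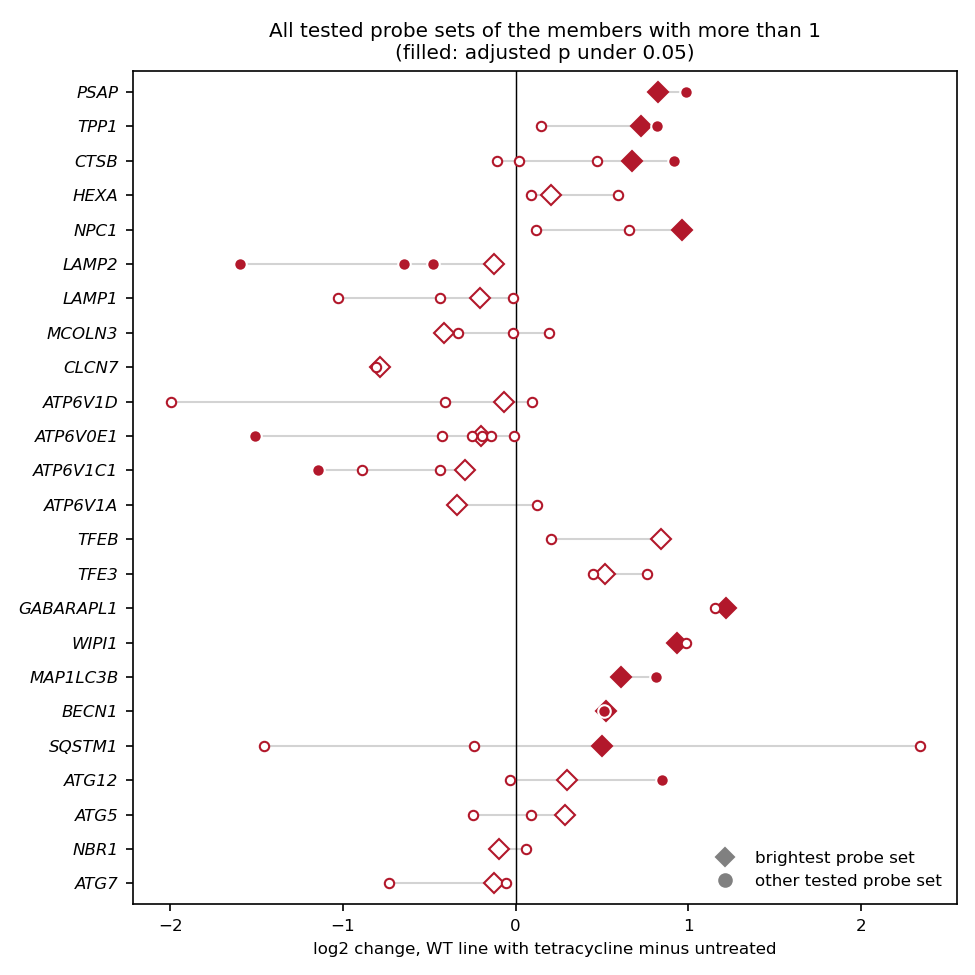
Log2 change in WT cells with tetracycline minus untreated (x axis) of every tested probe set of the 24 genes with more than 1 (rows, ordered by class as above). Diamonds are the brightest probe set of a gene and circles the others, and filled symbols have an adjusted p under 0.05. For LAMP2 the diamond at -0.13 is open and the 3 circles to its left are filled.

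In the mutant line, none of the 40 genes passed the test between cells with tetracycline and untreated cells, and none of all 13066 genes tested did (0.0% called, limma), while 620 of the 29553 tested probe sets had an unadjusted p under 0.05. Changes ran from -0.29 for LAMP2 to 0.48 for WIPI1, with a median of 0.04, and 0 of 40 had even an unadjusted limma p under 0.05. The groups still did not overlap for 4 of the 40: CTSB, CTSL, NEU1 and WIPI1, all higher with tetracycline. WIPI1 read 9.02, 8.79 and 8.88 with tetracycline and 8.41, 8.24 and 8.58 without. Its change was 0.48 ± 0.25 here and 0.94 ± 0.25 in WT cells. The dimmest tested LAMP2 probe set, called lower in WT cells, was also lower without overlap in mutant cells (-0.66 ± 0.24), but was not called there. In the mutant cells NPC1 read 11.17, 11.15 and 10.81 with tetracycline and 10.97, 10.79 and 10.63 without, a change of 0.25 ± 0.15, and MAP1LC3B was at 0.00 ± 0.12. The count stayed at 0 in all 22 other ways of processing.

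The difference between the lines in this change asks whether a gene responded more strongly to tetracycline with the wild-type channel than with the mutant one. No member passed, against 0.145% of all genes. An unadjusted limma p under 0.05 was reached by 4271 of all 29553 tested probe sets and by 7 of the 40 members. The nearest were MAP1LC3B (0.61 ± 0.16, adjusted p = 0.12), TPP1 (0.70 ± 0.20, adjusted p = 0.14), PSAP (0.73 ± 0.22, adjusted p = 0.15) and NPC1 (0.71 ± 0.22, adjusted p = 0.16). Thus the 11 rises of the WT line were not shown to exceed the changes of the mutant line. With arrays weighted by quality 5 members were called (NPC2, CTSB, PSAP, NPC1 and MAP1LC3B), and without WT tetracycline replicate 1 6 were: NPC2, CTSB, PSAP, MAP1LC3B and GABARAPL1 higher and CLCN7 lower.

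Untreated, the lines already differed in 4 of the 40 genes. ATP6V0E1 and ATG5 were higher in WT cells, where 5.84% of all genes were higher, and NEU1 and CTSZ were lower, where 6.82% were. NEU1 read 9.53, 8.34 and 9.36 in untreated WT cells and 10.81, 10.78 and 10.56 in untreated mutant cells, a difference of -1.64 ± 0.30 (limma adjusted p = 0.0038). CTSZ, the carboxypeptidase cathepsin X/Z, read 8.45, 8.16 and 8.39 in untreated WT cells and 9.38, 9.51 and 9.07 in untreated mutant cells, a difference of -0.99 ± 0.18 (limma adjusted p = 0.0038). Both gaps between the lines are wide, and both calls held in all 22 other ways of processing. ATG5 read 11.55, 11.33 and 11.36 in untreated WT cells and 10.95, 11.08 and 10.92 in untreated mutant cells, a difference of 0.43 ± 0.12 (limma adjusted p = 0.032). ATP6V0E1 read 12.62, 12.60 and 12.84 in untreated WT cells and 12.35, 12.31 and 12.38 in untreated mutant cells, a difference of 0.33 ± 0.10 (limma adjusted p = 0.049), and 4 of its further probe sets were called higher too, up to 2.24. LAMP1, ATP6V1A, TFE3 and NBR1 each had a further probe set that was lower (-1.52, -0.55, -0.97 and -0.58) beside a brightest one that was not called. The calls of ATG5 and ATP6V0E1 were lost in 8 and 15 of the 22 alternatives, with adjusted p up to 0.15 and 0.22 (without untreated WT replicate 1, adjusted p = 0.10 for ATG5 and 0.067 for ATP6V0E1, without any 1 of the 3 untreated mutant arrays, adjusted p up to 0.11 and 0.16, and for ATP6V0E1 also without untreated WT replicate 2 or 3, WT tetracycline replicate 2 or any 1 mutant tetracycline array, adjusted p up to 0.14). After quantile normalization 0 members were higher and 4 lower, and over all probe sets 4.59% were higher of 10.6% called, against 4.19% of 12.9% without it.

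With tetracycline in both lines, 14 of the 40 genes differed, 10 higher in WT cells, where 13.3% of all genes were higher, and 4 lower, where 14.9% were. This comparison shares its WT arrays with tetracycline with the comparison within the WT line. PSAP (1.06 ± 0.15), CTSB (0.85 ± 0.14), NPC1 (0.80 ± 0.15) and TPP1 (0.77 ± 0.14) were the higher luminal and membrane genes (limma adjusted p = 0.00034 to 0.0021). All 3 ATG8-family genes were higher: GABARAPL1 by 1.23 ± 0.38, GABARAPL2 by 0.69 ± 0.14 and MAP1LC3B by 0.43 ± 0.12 (adjusted p = 0.0031 to 0.026). GABARAPL2 read 12.80, 13.06 and 12.65 in WT cells with tetracycline, against 12.18, 12.18 and 12.07 in mutant cells with tetracycline, and its call held in all 22 alternatives. ATG5 (0.58 ± 0.12), BECN1 (0.46 ± 0.13) and TFEB (1.16 ± 0.37) completed the higher genes (adjusted p = 0.0037 to 0.031). TFEB in mutant cells with tetracycline read 7.18, 7.20 and 6.95, below the 7.71, 8.53 and 8.55 of WT cells with tetracycline.

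The 4 lower genes were NEU1 (-1.27 ± 0.30), CTSZ (-1.09 ± 0.18), ATP6V0D1 (-0.78 ± 0.23) and MCOLN1 (-1.55 ± 0.49), with limma adjusted p of 0.00086 to 0.031. NEU1 and CTSZ were thus low in the WT line with tetracycline as without it. ATP6V0D1, a subunit of the membrane sector, read 11.32, 10.60 and 10.36 in WT cells with tetracycline, against 11.57, 11.58 and 11.49 in mutant cells with tetracycline. MCOLN1 read 8.80, 6.21 and 7.63 in WT cells with tetracycline, against 8.85, 9.01 and 9.42 in mutant cells with tetracycline, and leaving out WT tetracycline replicate 2 gave a difference of -0.88 (adjusted p = 0.14). The calls of GABARAPL1, TFEB, ATP6V0D1 and MCOLN1 were lost without WT tetracycline replicate 2 or 3 or mutant tetracycline replicate 1 or 2, and those of the genes other than ATP6V0D1 also without mutant tetracycline replicate 3 (adjusted p up to 0.14), BECN1 without WT tetracycline replicate 2 (adjusted p = 0.055) or mutant tetracycline replicate 2 (adjusted p = 0.092), and MAP1LC3B without mutant tetracycline replicate 1 (adjusted p = 0.053). With the mean of all probe sets of a gene, 5 of the 10 higher calls were lost: NPC1 at 0.00 (adjusted p = 0.99), TPP1 at 0.31 (adjusted p = 0.11), CTSB at 0.31 (adjusted p = 0.19), BECN1 at 0.24 (adjusted p = 0.15) and TFEB at 0.89 (adjusted p = 0.13).

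Over all 29553 tested probe sets, 3024 were called higher and 5127 lower between the lines with tetracycline. Of the 51 further probe sets of the members, 11 were called higher and 11 lower, and 18 of these 22 stood beside a brightest one that was not called. The 11 lower ones belong to LAMP1 (-1.50), CLCN7 (-2.94), MCOLN3 (-0.80), TFE3 (-0.80), NBR1 (-0.56), ATP6V1A (-0.45), ATP6V1C1 (-1.39), ATP6V0E1 (-1.56) and LAMP2, for which 3 were lower (-0.70, -0.56 and -1.06) and the brightest read 0.63 (limma adjusted p = 0.062). Beside uncalled brightest ones, 4 probe sets of ATP6V0E1 (up to 1.89), and 1 each of SQSTM1 (2.52), WIPI1 (1.25) and ATG12 (0.76) were higher. Among these genes, the direction between the lines thus depends on the probe set for LAMP1, LAMP2, TFE3, ATP6V1A, ATP6V0E1, SQSTM1 and ATG12. Beside brightest ones that were called, 3 of 15 further probe sets pointed the other way, none of them called. They belong to NPC1 (-0.60 and -0.19) and CTSB (-0.54), whose brightest ones were higher. All tested probe sets of CLCN7, MCOLN3, NBR1, ATP6V1C1 and WIPI1 shared a direction, and only the call differed. The actin and 18S values given above separate the same arrays, and their part in the differences between lines was not tested.

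**Figure D4:**
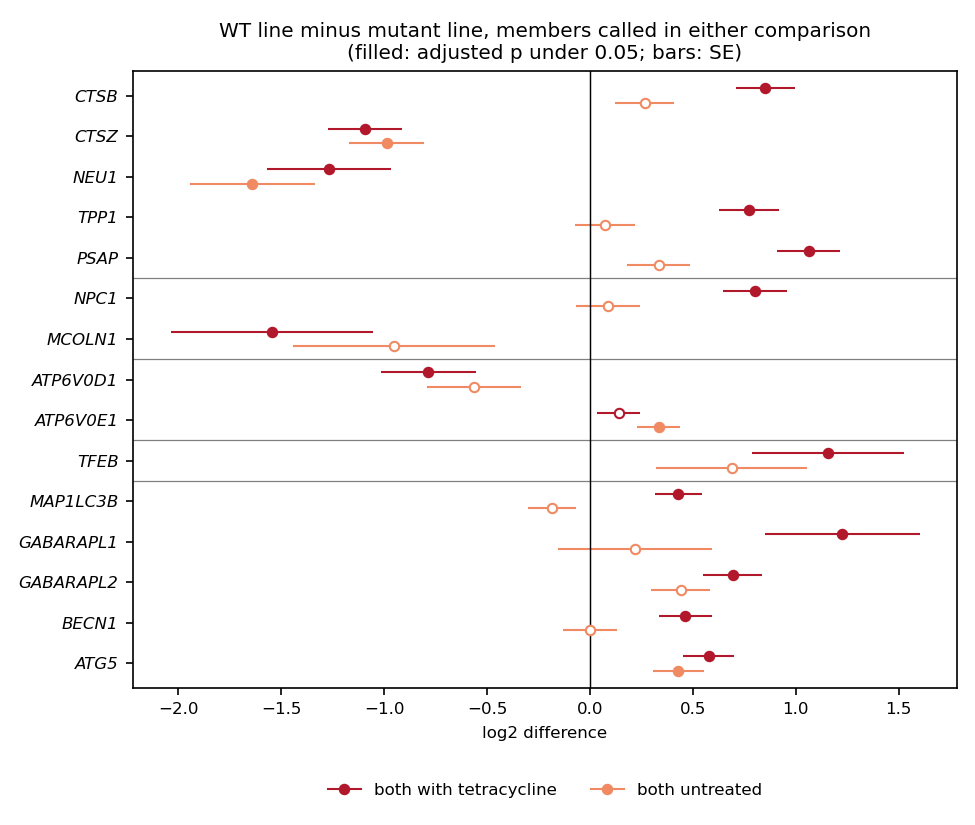
Log2 difference of WT minus mutant cells (x axis) of the 15 genes called in either comparison of lines (rows), both with tetracycline (red, upper point) and both untreated (orange, lower point), with the standard error as a bar. Filled points have an adjusted p under 0.05. NEU1 and CTSZ are filled and below 0 in both comparisons and ATG5 is filled and above 0 in both.

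Counting all 5 comparisons, 21 of the 40 genes passed in none by their brightest probe set. They are CTSA, CTSD, CTSL, GAA, GLA and HEXA among luminal proteins, LAMP1, LAMP2, MCOLN3 and CLCN7 among membrane proteins, ATP6V1A, ATP6V1B2, ATP6V1C1, ATP6V1D and ATP6V1H among pump subunits, TFE3, and NBR1, ULK1, ATG7, ATG12 and UVRAG among autophagy genes. A gene with a wide spread, such as MCOLN1 or CTSD, needed a larger change to pass than a tight one such as BECN1.

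Promoters were read for the E-box core CACGTG, the letters at the centre of the motif that TFEB and TFE3 bind, called the CLEAR element in lysosomal genes. RefSeq promoter windows of the GRCh38.p14 build, from 250 bases before to 50 after a transcript start, were found for 30 of the 40 genes (37 windows). The core, which reads the same on both strands, was in 8 of 37 windows of the members (21.6%), against 7.26% of all 35116 windows in the table. In each of these 8 genes at least 1 core also had a T before it on either strand, as TCACGTG or CACGTGA, which 3.71% of all windows hold. They were 4 luminal genes (CTSA, CTSD, GAA and NEU1), 3 membrane genes (LAMP1, MCOLN1 and CLCN7) and the pump subunit ATP6V0D1, and none of the 11 autophagy genes with a window. The 200 bases before the start of each follow, 5′ to 3′ on the strand of the gene, because they show where the cores lie. Capitals mark the core.
LAMP1, chr13:113297039-113297238, plus strand: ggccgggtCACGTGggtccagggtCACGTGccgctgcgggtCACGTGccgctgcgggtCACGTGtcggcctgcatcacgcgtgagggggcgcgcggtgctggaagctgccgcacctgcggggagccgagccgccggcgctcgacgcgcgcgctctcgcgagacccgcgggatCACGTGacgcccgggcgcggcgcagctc
CLCN7, chr16:1475029-1475228, minus strand: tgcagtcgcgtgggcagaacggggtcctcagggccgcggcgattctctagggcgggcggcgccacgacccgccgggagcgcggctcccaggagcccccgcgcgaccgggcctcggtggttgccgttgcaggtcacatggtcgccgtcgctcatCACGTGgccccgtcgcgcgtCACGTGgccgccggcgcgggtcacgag
MCOLN1, chr19:7522424-7522623, plus strand: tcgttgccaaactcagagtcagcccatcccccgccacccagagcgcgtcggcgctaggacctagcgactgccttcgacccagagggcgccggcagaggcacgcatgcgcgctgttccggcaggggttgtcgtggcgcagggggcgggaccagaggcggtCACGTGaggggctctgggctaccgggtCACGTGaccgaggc
CTSA, chr20:45891135-45891334, plus strand: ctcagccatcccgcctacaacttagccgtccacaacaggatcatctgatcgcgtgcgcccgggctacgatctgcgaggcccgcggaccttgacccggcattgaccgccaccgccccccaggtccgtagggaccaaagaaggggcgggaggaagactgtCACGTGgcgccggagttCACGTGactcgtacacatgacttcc
GAA, chr17:80101381-80101580, plus strand: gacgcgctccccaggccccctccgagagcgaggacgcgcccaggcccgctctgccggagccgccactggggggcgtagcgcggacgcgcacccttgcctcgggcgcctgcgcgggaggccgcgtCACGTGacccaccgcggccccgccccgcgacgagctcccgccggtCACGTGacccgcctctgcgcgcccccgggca
CTSD, chr11:1763928-1764127, minus strand: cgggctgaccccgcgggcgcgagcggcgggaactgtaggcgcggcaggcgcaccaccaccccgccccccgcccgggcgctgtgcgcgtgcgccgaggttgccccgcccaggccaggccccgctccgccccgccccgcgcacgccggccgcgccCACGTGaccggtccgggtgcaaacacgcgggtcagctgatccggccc
NEU1, chr6:31862822-31863021, minus strand: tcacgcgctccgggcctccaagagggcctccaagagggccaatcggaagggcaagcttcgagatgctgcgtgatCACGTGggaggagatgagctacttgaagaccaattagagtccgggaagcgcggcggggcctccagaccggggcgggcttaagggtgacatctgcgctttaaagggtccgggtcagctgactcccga
ATP6V0D1, chr16:67481158-67481357, minus strand: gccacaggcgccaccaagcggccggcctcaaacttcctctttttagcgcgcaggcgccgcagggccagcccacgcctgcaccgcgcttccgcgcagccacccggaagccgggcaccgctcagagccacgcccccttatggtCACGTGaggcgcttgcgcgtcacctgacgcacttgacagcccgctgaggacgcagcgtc

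LAMP1 had the most, 6 in its window, of which 5 are in the stretch shown and the last straddles the start. None of the 8 genes rose in WT cells with tetracycline, and their changes ran from -0.79 for CLCN7 to 0.55 for NEU1, with a median of -0.15. The 22 genes whose windows lacked the core had a median of 0.51, and 9 of them rose. Over all tested genes with a window the shares lay closer together: of 1353 with the core 9.02% rose and 11.6% fell, and of 9293 without it 9.90% rose and 8.39% fell. For 4 of the 9 risen genes, chosen as the hydrolase, the membrane protein and the autophagy genes with the smallest p and the largest change without overlap, the same stretch is shown, and it holds no capitals. A match is only a run of letters, and a window without one says nothing about the factors.
TPP1, chr11:6619423-6619622, minus strand: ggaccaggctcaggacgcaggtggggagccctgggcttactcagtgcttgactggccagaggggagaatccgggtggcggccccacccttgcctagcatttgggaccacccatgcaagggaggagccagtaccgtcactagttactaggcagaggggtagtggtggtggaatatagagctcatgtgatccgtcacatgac
NPC1, chr18:23586507-23586706, minus strand: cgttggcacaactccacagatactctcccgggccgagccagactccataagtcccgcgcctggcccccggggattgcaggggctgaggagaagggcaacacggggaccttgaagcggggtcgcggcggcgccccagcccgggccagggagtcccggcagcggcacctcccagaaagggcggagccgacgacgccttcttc
MAP1LC3B, chr16:87392136-87392335, plus strand: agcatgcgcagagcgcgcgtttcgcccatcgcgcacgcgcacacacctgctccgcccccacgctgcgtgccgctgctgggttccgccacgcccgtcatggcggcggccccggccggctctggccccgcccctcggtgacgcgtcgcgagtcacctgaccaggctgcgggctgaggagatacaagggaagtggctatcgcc
WIPI1, chr17:68457497-68457696, minus strand: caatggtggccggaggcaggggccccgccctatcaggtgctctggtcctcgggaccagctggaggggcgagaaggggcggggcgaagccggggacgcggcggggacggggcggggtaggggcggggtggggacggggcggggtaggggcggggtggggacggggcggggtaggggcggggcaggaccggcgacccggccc

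The 8 genes with the core also shared an array pattern in the WT line, which was noticed after their values were seen. Untreated WT replicate 2 was the lowest of its group in 8 of 8, WT tetracycline replicate 2 in 7 of 8, and WT tetracycline replicate 1 was the highest in 6 of 8. CTSD, for example, read 8.21, 7.86 and 8.36 in WT cells with tetracycline and 8.16, 6.51 and 8.46 in untreated WT cells, and LAMP1 read 12.93, 11.72 and 11.88 against 12.90, 11.63 and 12.62. Their median SD was 0.57 in WT cells with tetracycline and 0.64 in untreated WT cells. The 22 genes without the core had 0.21 and 0.26, and their lowest array was replicate 2 in 9 of 22 in both WT groups. The test thus had less to work with for the genes with the core, and absence of a call among them does not show that they did not change.

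**Figure D5:**
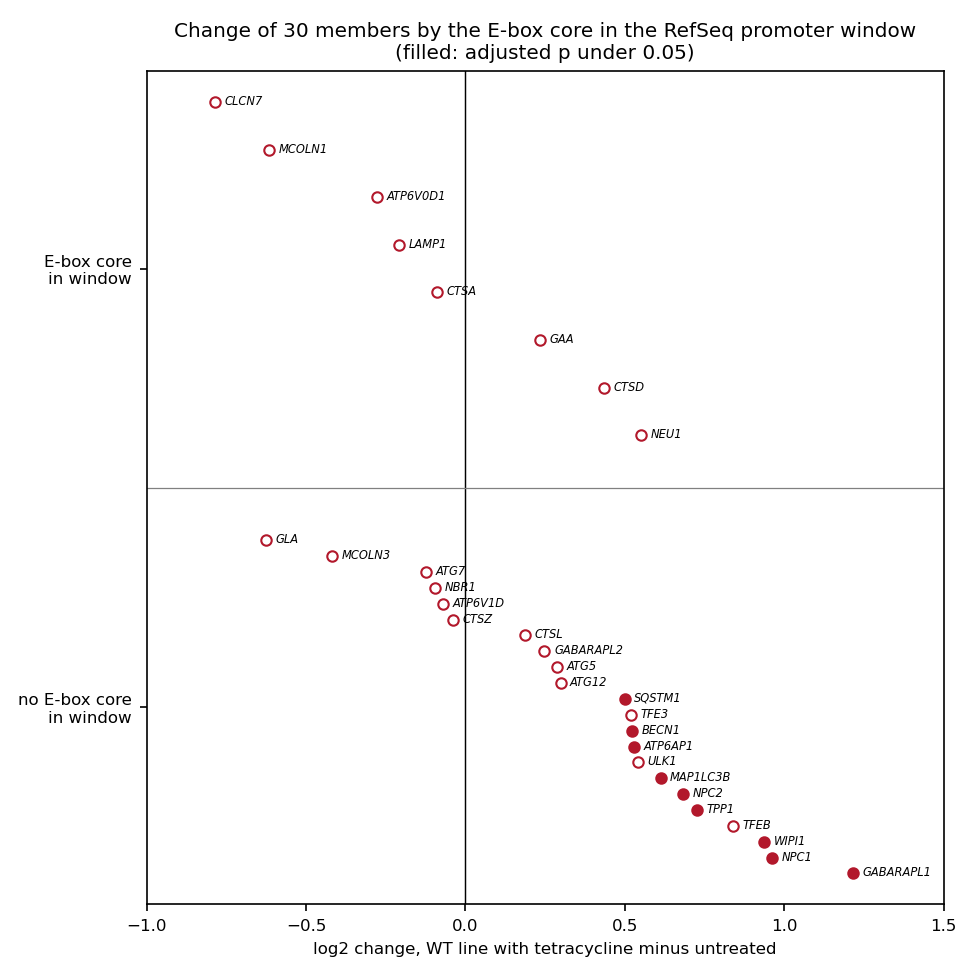
Log2 change in WT cells with tetracycline minus untreated (x axis) of the 30 genes with a RefSeq promoter window, those with the E-box core above and those without it below, each ordered by change. Filled points have an adjusted p under 0.05. All 9 filled points lie in the lower part.

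A wider set of 162 further genes of the same pathways was listed for comparison, of which 141 were tested. In WT cells with tetracycline 11 of them rose (7.80%, against 9.41% of all genes) and 19 fell (13.5%, against 8.57%), and in mutant cells none passed. The median change was 0.06 for the other luminal, -0.06 for the other membrane, 0.15 for the other pump and 0.01 for the other autophagy genes. Of 31 other luminal proteins 3 rose and 3 fell, among them the sulfatase ARSB (1.15 ± 0.27), the fucosidase FUCA2 (0.60 ± 0.14) and the amidase NAAA (-0.78 ± 0.18). Of 21 other membrane proteins, the tetraspanin CD63 rose (0.47 ± 0.09) and 6 fell, with the amino acid sensor SLC38A9 (-1.66 ± 0.29) and the channel MCOLN2 (-0.81 ± 0.21) having the smallest p. None of 12 other proton pump genes passed. Of 35 other autophagy genes 4 rose and 4 fell, with the receptors OPTN (0.75 ± 0.16) and TAX1BP1 (0.53 ± 0.12) higher and the kinase ULK2 (-1.01 ± 0.19) lower. In the list for mTORC1, the growth kinase that holds TFEB in check, 3 of 24 rose and 1 fell: the stress-induced inhibitors SESN2 (0.91 ± 0.18) and DDIT4 (0.75 ± 0.17) and the small GTPase RRAGD (0.79 ± 0.16) were higher. Of 18 genes for sorting to and fusion with lysosomes none rose and 5 fell, including VAC14 (-0.99 ± 0.23) and FIG4 (-0.71 ± 0.16), partners in the making of a lysosomal lipid, and the retromer subunit VPS26A (-0.54 ± 0.12). All these calls had limma adjusted p under the threshold of 0.05, with SESN2 at 0.0036 and SLC38A9 at 0.0018.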

How the data were processed

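Total RNA of 12 samples, 3 in each of 4 groups, was measured on Affymetrix arrays with 54675 probe sets. Per the submitters' processing notes the deposited values are MAS5 signals, which are linear intensities. Neither version nor settings of that software are given in the sources used here. The 2% trimmed mean of each array was 500.06 to 500.07, so the authors had scaled the arrays to a common mean. The number of arrays limits the precision.

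Signals under 1 (0.337% of values) were set to 1 and log2 was taken. Controls (62) and probe sets whose highest group mean was at or below the median of all values, 6.39, were left out, and 29553 were tested. All 12 arrays entered 1 model with a mean per group in limma 3.58.1 (R 4.3.3; eBayes with trend), 2-sided, with Benjamini-Hochberg adjustment over all tested probe sets within each contrast and a threshold of 0.05. The model was tested on simulated data, in which each probe set had the same spread in all 4 groups. That check therefore does not cover the noisier WT line. Each gene was read from its brightest probe set by mean log2 signal, with symbols from the platform annotation, and 13066 genes had one that was tested. Every member called in a comparison is named, as are up to 3 further pathway genes per list. Control signals were compared with exact permutation tests. Promoter sequences are RefSeq's (GRCh38.p14), used only for motifs and not to place probes. Motif counts and figures used Python 3.11.15 with matplotlib 3.10.9. 0 columns were left out.

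The members, the classes and the further lists were chosen with earlier results of these data known. Replicate numbers are shared between groups but were not taken as pairs, since the labels tie no number to a culture or day. The correlation of deviations of same-numbered WT arrays was 0.25, 0.24 and 0.04. Unlike-numbered arrays across the WT groups ran from -0.29 to 0.11, and whether same-numbered arrays share variation was not tested. The alternatives were no filter, a stricter filter at 8.92, an offset of 16 in place of the floor, quantile normalization, eBayes without trend, only the arrays compared, a replicate block, array weights, leaving out each array, leaving out all replicate 3 arrays, and the mean of a gene's tested probe sets.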

Additional observations from a re-analysis of the deposited data

How the results depend on the processing

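Each called member's change was computed again under every alternative: none reversed, 509 such values kept the call and 128 lost it. With tetracycline in the WT line, 11 members were called, 2 with only the arrays compared, 1 without the replicate 3 arrays of all groups, and 6 to 16 when 1 array was left out; over all probe sets these counts were 5005, 1223 and 541. The mutant line gave 0 in every alternative. For the difference between these changes, 0 were called, 5 with array weights, and 0 to 6 without 1 array (the highest without WT tetracycline replicate 1); over all probe sets 41, 2493 and 2702 were called. Between untreated lines 4 were called, 2 without trend, 8 with the replicate block, and 2 to 8 without 1 array. Between lines with tetracycline 14 were called, 7 without the replicate 3 arrays of all groups, and 9 to 19 without 1 array. The replicate block gave 13 in the WT line (11 higher, GLA and CLCN7 lower), 0 in the mutant line, 0 in the difference and 17 between lines with tetracycline. Same-numbered mutant arrays correlated at 0.14, 0.03 and 0.21. The cause of these shifts was not tested. Fewer arrays leave fewer degrees of freedom, and a model of only the WT arrays also no longer shares its spread with the less noisy mutant arrays. The part of each was not tested. The extra calls without WT tetracycline replicate 1 were TFEB higher and ATP6V1A, ATP6V0D1, ATP6V1H, MCOLN1 and CLCN7 lower, and SQSTM1 was lost there. With 3 arrays a group and a noisier WT line, changes of the size of ULK1 or TFE3 fell just short of the threshold, and probe sets that disagree limit what can be said of LAMP2, SQSTM1 and NPC1. For sequence, 10 members had no promoter window in the table.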
